A study of Homo sapiens with 16 samples.

Results

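MYC encodes a bHLH transcription factor that drives growth and proliferation, and PVT1 is the long non-coding RNA gene that follows it on the same strand. Histone H3 acetylated at lysine 27 (H3K27ac) marks active promoters and enhancers, and in blood cells distal enhancers far downstream of MYC are known to act on its promoter. H3K27ac ChIP-seq peaks were analysed over this locus on chromosome 8 (GRCh38), from 35.4 kb upstream of the MYC start site through PVT1 to 2165 kb downstream. The members are the peaks that overlap this window of 2.2 Mb at a q-value of at most 1% (a -log10 q of 2 or more). They number 2489 of 1065840 peaks in 14 lists, or 0.234%, and merge into 267 of 170159 regions. The -log10 q of the member nearest the threshold was 2.009, that of the nearest peak left out was 1.998, and 252 further deposited peaks of the window fell under it.

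The chromatin came from fixed K562 cells, a human chronic myelogenous leukemia line of erythroleukemia type, and the antibody was anti-H3K27ac (Abcam, ab4729). DNAchrom is the DNA content measured directly in the chromatin input, and the titer is the antibody amount per DNAchrom relative to the optimal ratio, set as 1. In the fixed-antibody arm, 0.25 µg of antibody was added to 7 amounts of DNAchrom, which doubled at each step from 0.31 to 20 µg, so that the titer went from 32 through 16, 8, 4, 2 and 1 to 0.5. For the normalized arm, the antibody was scaled to titer 1 at the same 7 amounts. Libraries are named by DNAchrom in µg and titer, such as 0.31-T32 and 0.31-T1, and values listed for an arm run from the lowest amount to the highest. There was 1 library per condition, apart from 10-T1a and 10-T1b, which share amount and titer. An input library was made for each arm, so an arm difference and an input difference cannot be told apart. Separate cultures are not stated, so that p-values measure only the spread between these libraries. Titer and DNAchrom move together within the fixed-antibody arm.

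After the q-value threshold was applied, the lists held 64083 to 82143 peaks each, all called separately in their own library by the authors. The study lists fewer peaks for every library, so its peak numbers were not reproduced, and the reason was not tested. The lists give no read numbers, and the mapped read numbers that the study lists for each library were not used here, so a missing peak means only that none was called. As a check of the cell line, the erythroid markers HBG1, HBG2, HBA1, HBA2, GATA1, TAL1, KLF1, ALAS2 and TFRC each had a peak within 5 kb of the transcription start site (TSS) in all 14 lists, against 52.3% of protein-coding genes. HBG1 and HBG2, and likewise HBA1 and HBA2, are near-identical neighbours whose signals may not be separate. Among markers of other blood cells, PAX5, CD3E, CD8A and MPO had a peak in 0 lists, while CD14 had one in all 14, CSF1R in 13 and CD4 in 2.

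The acetylated part of the window had 3 sections. No list had a peak between the start of the window and 1.16 kb upstream of the MYC TSS, a stretch that holds CASC11, the divergent non-coding neighbour of MYC. The MYC promoter was covered by 1 merged region, at chr8:127734273-127741076, which reaches 5.64 kb into the gene. From there to the end of PVT1, 366 kb from the TSS, lay 117 regions, and a further 122 lay more than 1.5 Mb away, in and around CCDC26, a long non-coding RNA gene on the opposite strand, and GSDMC. Between these sections, from the end of PVT1 to 1.5 Mb, 27 regions were found over a length of more than 1 Mb.

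**Figure D1:**
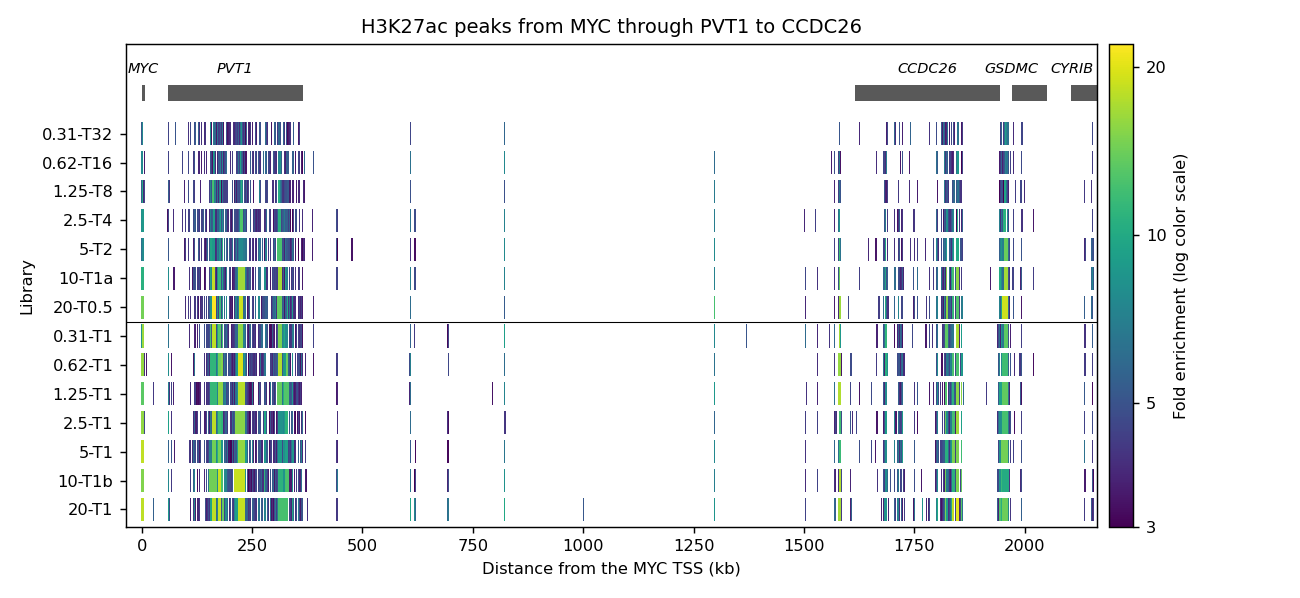
Peaks of the MYC window in each of the 14 lists, plotted by distance from the MYC TSS in kb and colored by fold enrichment on a log color scale, with gene bodies above (peaks narrower than 2.44 kb are drawn at that width). The 7 fixed-antibody libraries stand above the line and the 7 normalized libraries below it, and peaks gather in PVT1 and around CCDC26 in both arms.

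Of the 267 regions, 26 (9.74%) had a peak in all 14 lists, beside 10.9% of all merged regions. One of the 26 was the MYC promoter, 13 lay between it and the end of PVT1, 2 between PVT1 and 1 Mb, 0 between 1 and 1.5 Mb, and 10 beyond 1.5 Mb. PVT1 overlapped 13 of them and CCDC26 8. These 26 regions held 80.8% to 91.8% of the bases covered in the window in every list. At the other end, 95 regions (35.6%) were found in only 1 list, against 46.2% of all merged regions.

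The longest stretch without a region in all 14 lists was 755 kb, from 823 kb to 1578 kb. It held 15 regions, 8 of them in only 1 list. Within it lay the longest stretch without a peak in any list, of 297 kb, starting 999 kb from the TSS. Of these 15 regions, 2 had a peak in 13 lists, and both were missing only from 0.31-T32. One, at chr8:129031459-129033760, lay 1297 kb from the TSS, and its fold enrichment ran from 5.74 in 2.5-T1 to 12.2 in 20-T0.5. The other, at chr8:129303503-129304507, lay 1569 kb from the TSS near the end of the gap, with fold enrichments of 3.48 to 6.19. The 2 regions in all 14 lists between PVT1 and 1 Mb, at 608 kb and in LINC00824 at 822 kb, were narrow, with merged widths of 1.08 and 2.10 kb.

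At the MYC promoter, the fold enrichments of the fixed-antibody libraries, from titer 32 to titer 0.5, were 7.62, 7.75, 10.1, 8.77, 7.76, 10.6 and 14.4. Those of the normalized libraries, by rising DNAchrom, were 16.3, 15.98, 13.2, 15.8, 18.2, 15.1 and 18.1. All 5 libraries of titer over 1 lay below all 9 others, with a gap between 10.1 and 10.6. The gap is smaller than the difference between 10-T1a (10.6) and 10-T1b (15.1), which share a condition. All 5 are of the fixed-antibody arm, and the 9 others include all 7 normalized libraries. Here and wherever these groups are compared below, the split is thus largely also 1 of arm and input. The strongest summit stayed between 1.14 and 2.54 kb downstream of the TSS in all 14 lists.

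In the libraries of titer over 1, the peaks at the MYC promoter were also broken up. From titer 32 to titer 2 there were 3, 4, 5, 3 and 2 peaks, and none of them contained the outer gene end, taken here as the TSS. Start sites further inside the gene were not examined. In 5-T2, for example, 1 peak ended 0.17 kb before the TSS and the next began 0.088 kb after it. The other 9 libraries had a peak over the TSS, and in 8 of these it was the only peak of the region, 6.37 to 6.79 kb wide. The exception was 0.31-T1, with peaks of 0.913 and 5.48 kb. A TSS inside a peak in all 9 libraries of titer 1 or less and in none of the 5 others was found for 39 of 9974 protein-coding genes with a peak within 5 kb in every list, or 0.391%. Over these genes, the TSS lay inside a peak for 23.5% in 0.31-T32 and for up to 53.5% in 5-T1.

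**Figure D2:**
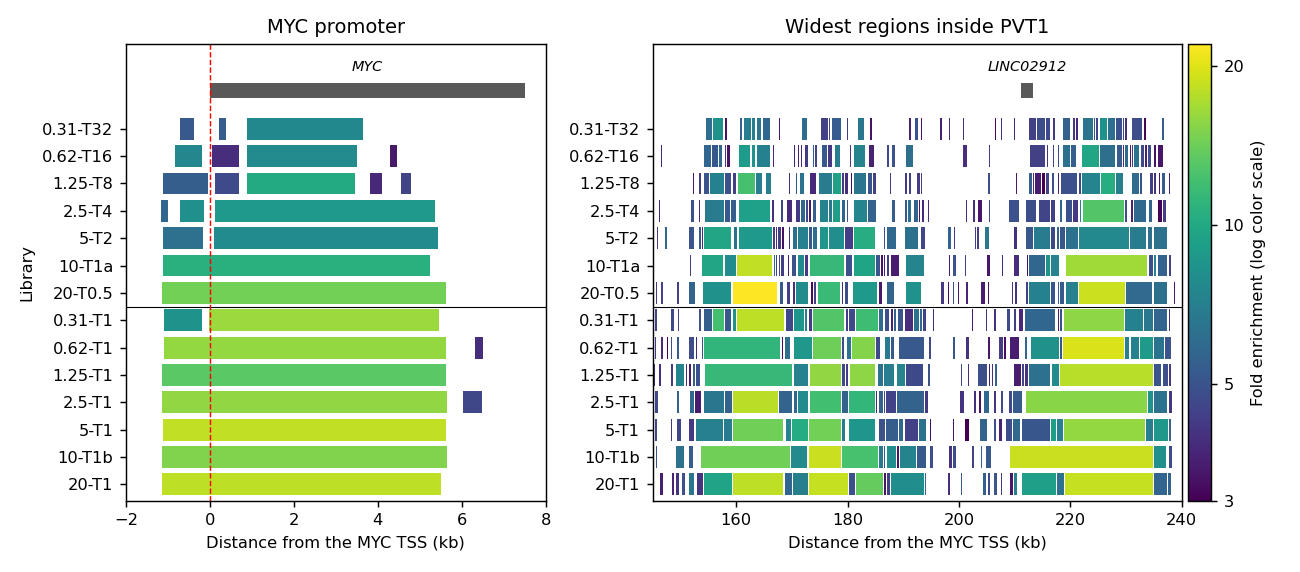
Peaks at the MYC promoter (left, the dashed red line is the TSS) and over the widest regions inside PVT1 (right), by distance from the MYC TSS in kb, for each of the 14 libraries, colored by fold enrichment on a log color scale. The promoter is split into 2 to 5 peaks in the 5 libraries of titer over 1, and the region at 222 kb is 1 peak in 10-T1b and 18 peaks in 0.31-T32.

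On the log2 scale, the correlation of MYC promoter fold enrichment with titer in the fixed-antibody arm was r = -0.75 (Pearson, exact permutation p = 0.0456, n = 7), which did not pass correction over the family of 9 tests (Benjamini-Hochberg adjusted p = 0.0587). Spearman's rho was -0.86 (exact p = 0.0238). Leaving out titers 32 and 0.5, the farthest from the median, gave r = -0.40 (exact p = 0.483), so the relation rests on them. The percentile of the promoter peak in its own list gave r = 0.32 (exact permutation p = 0.499), the opposite direction. No trend with DNAchrom was shown in the normalized arm (r = 0.36, exact p = 0.447, adjusted p = 0.447, rho = 0.18 with exact p = 0.713, n = 7), and r was 0.29 (exact p = 0.7) when 0.31-T1 and 20-T1 were left out.

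At equal DNAchrom, the MYC promoter was higher in the normalized library in 6 of 6 pairs of unequal titer. The pairs do not share 1 direction of titer: the normalized library had the higher titer at 20 µg (1 against 0.5) and the lower titer in the other pairs. The mean difference was 0.82 ± 0.38 (SD, n = 6 pairs) on the log2 scale, or 1.77-fold, with an exact two-sided sign-flip permutation p of 0.03125, the smallest that 6 pairs can give, and an adjusted p of 0.0469. The libraries of 1 condition, 10-T1b and 10-T1a, differed by 0.51 in the same direction. The pairs whose fixed-antibody library had titer 8 or 0.5, with differences of 0.38 and 0.32, lay within that spread. By percentile in the own list, the mean difference was 6.79 percentile points (exact p = 0.0625).

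The level of the MYC promoter among other promoters also differed between libraries. Of the 9974 genes with a peak in every list, it ranked 8128 in 5-T2 and 7069 in 10-T1a, and 908 in 5-T1. Relative to the median of each list, the 5 genes whose promoters followed MYC most closely over the 14 libraries were ETAA1 (r = 0.92), NAPSA (r = 0.91), PRDM7 (r = 0.90), KIF2C (r = 0.90) and POLR3G (r = 0.89). They are the highest of 9973 genes compared, whose median r was -0.0052, and all values come from the same 14 libraries.

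PVT1 has its TSS 59.1 kb downstream of MYC, and its promoter was the weaker of the pair. The strongest peak within 5 kb had fold enrichments of 6.19, 4.51, 5.39, 4.59, 5.17, 7.90 and 6.23 from titer 32 to titer 0.5. The normalized libraries gave 8.02, 7.99, 7.12, 9.29, 5.65, 7.60 and 8.68 by rising DNAchrom. In all 14 lists it was below the MYC promoter, and libraries of titer over 1 and the others overlapped, with 6.19 in 0.31-T32 above 5.65 in 5-T1. The PVT1 TSS itself lay inside a peak in 9 lists.

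The body of PVT1 carried the widest acetylated regions of the window. The widest, 43.97 kb at chr8:127886900-127930868 and centred 173 kb from the MYC TSS, ranked 3 in width among the 18472 merged regions found in all 14 lists. The regions centred at 320 kb and 222 kb, of 30.2 and 26.4 kb, ranked 16 and 26. The latter holds LINC02912 and MIR1205, and the former MIR1207, non-coding RNA genes inside or overlapping PVT1. Over all 26 regions the median width was 5382 bp, beside 2960.5 bp over all 18472. These widths are those of the merged regions, so 1 library with a wide peak sets them.

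In the widest region, peaks covered 14.8, 18.1, 22.3, 26.5, 32.04, 33.2 and 32.4 kb from titer 32 to titer 0.5. Peaks of the normalized libraries covered from 35.5 kb in 0.31-T1 to 39.7 kb in 20-T1. The 5 libraries of titer over 1 again lay below the other 9. The number of peaks in it went from 28 in 2.5-T4 to 12 in 10-T1b. In the region at 222 kb, 18 peaks were called in 0.31-T32 and in 0.62-T16, 10 in 5-T2 and in 20-T0.5, and only 1 in 10-T1b, a peak of 25.7 kb that was the widest of the window in any list.

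Fold enrichment put the same PVT1 regions at the top of the window. It is that of the strongest peak, so a wide region of many peaks has more values to take it from. There were 12 to 28 peaks per list at 173 kb and 1 to 18 at 222 kb. The region at 173 kb had the highest median percentile over the 14 lists, 97.5, followed by the region at 222 kb with 97.3. The strongest peak of the window fell in the region at 173 kb in 5 lists, in the region at 222 kb in 5, in the region at 1955 kb in 2, at 1848 kb in 1 and at the MYC promoter in 1 (5-T1). This strongest peak was never below the percentile 96.7 of its list. Among the 10 regions of highest median percentile were also the region at 320 kb, the MYC promoter (94.7) and 6 distal ones.

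**Figure D3:**
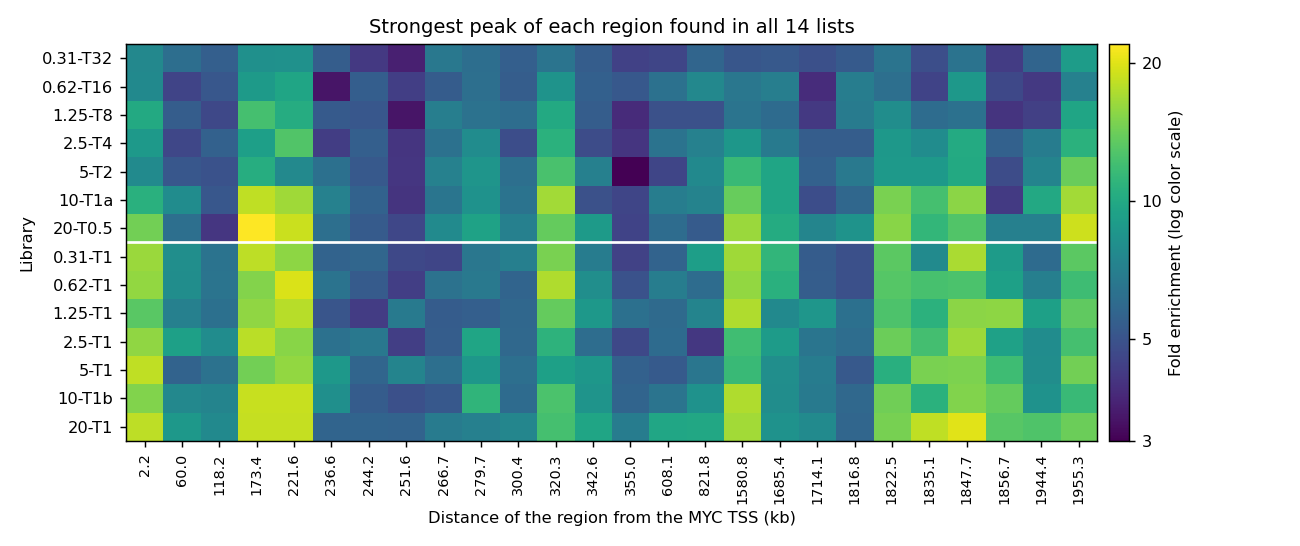
Fold enrichment (log color scale) of the strongest peak in each of the 26 regions found in all 14 lists, ordered by distance from the MYC TSS in kb, for the 7 fixed-antibody libraries (above the white line) and the 7 normalized libraries (below). The regions at 173 and 222 kb are among the brightest columns, and the 6 regions from 237 to 300 kb stay between 3.36 and 11.01 in every library.

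The weaker PVT1 regions varied in level and rank. The region at 118 kb had fold enrichments between 4.10 in 20-T0.5 and 7.89 in 2.5-T1. The region at 355 kb, near the end of PVT1, ran from 2.79 in 5-T2, where its percentile was 0.471, to 6.92 in 20-T1. Over the 13 regions of the PVT1 section, the median fold enrichment of a list ran from 5.39 in the library of titer 8 to 7.60 in 10-T1b.

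The distal section lay beyond 1.5 Mb. Its nearest region in all 14 lists, at chr8:129313077-129319447, lies 1581 kb from the MYC TSS, between genes. From titer 32 to titer 0.5, its fold enrichment was 5.10, 6.63, 6.44, 8.59, 11.6, 13.8 and 16.3. The normalized libraries lay between 11.6 in 5-T1 and 17.3. The summits of its strongest peaks stayed within 0.677 kb of each other, the narrowest spread but 2 among the 26 regions.

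Inside CCDC26, the region at 1848 kb reached 20.1 in 20-T1 and 6.33 in the library of titer 8, and all 5 libraries of titer over 1 were below the other 9. The region at 1955 kb, 16.975 kb wide and upstream of CCDC26, had 9.02 in 0.31-T32 and 18.9 in 20-T0.5, and its libraries overlapped. At 1857 kb, the libraries of 1 condition differed most, with 4.22 in 10-T1a and 13.8 in 10-T1b. Over the 26 regions, these libraries differed by a median of 0.27 on the log2 scale, beside 0.31 over all 18472 regions, and 14 of 26 were higher in 10-T1b.

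Of the other genes in the window, GSDMC, a gasdermin gene, had no peak within 5 kb of its TSS in any list, and CYRIB, whose TSS lies outside the window, had one in all 14, with fold enrichments of 5.44 to 15.3. The 5 kb around the CCDC26 TSS touched a peak in all 14 lists, from 5.03 in the library of titer 8 to 18.9 in 20-T0.5, and in 6 of them that peak was at least 12.6 kb wide with its summit more than 11 kb upstream. The TSS of CASC11, 1.47 kb upstream of that of MYC, was inside a peak in 0 lists, and the strongest peak within 5 kb of it was that of the MYC promoter. MIR3686, a microRNA gene within CCDC26, had a peak within 5 kb in 10 lists.

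Covered length answers how much of the locus was called at each antibody titer. From titer 32 to titer 0.5, peaks covered 82.0, 103, 113, 150, 183, 195 and 198 kb of the window. By rising DNAchrom at titer 1, they covered 193, 210, 229, 228, 237, 239 and 238 kb. Peak numbers overlapped, with 150 to 197 in fixed-antibody and 170 to 189 in normalized libraries. The widest peak had at most 9544 bp at titers over 1 and at least 10787 bp in the other libraries.

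In the fixed-antibody arm, covered length fell with log2 titer (r = -0.98, exact permutation p = 0.000397, adjusted p = 0.00179, n = 7), by 21.5 kb per doubling, with rho = -1 (exact p = 0.000397). It was still -0.98 (exact p = 0.0167) when titers 32 and 0.5 were left out. At titer 1, covered length rose with log2 DNAchrom (r = 0.89, exact p = 0.00258, adjusted p = 0.00774, n = 7), by 7.15 kb per doubling, with rho = 0.93 (exact p = 0.00675) and r = 0.91 (exact p = 0.0333) without 0.31-T1 and 20-T1. This rise did not hold when 10-T1a took the place of 10-T1b (r = 0.45, exact p = 0.2998) or on a linear scale of DNAchrom (r = 0.61, exact p = 0.148).

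At equal DNAchrom, the normalized library covered more in 6 of 6 pairs, by 84.5 ± 32.1 kb (SD, n = 6 pairs; exact sign-flip permutation p = 0.03125, the smallest possible, adjusted p = 0.0469). The pair of equal titer, 10-T1b and 10-T1a, differed by 43.97 kb in the same direction. The differences at the 3 lowest amounts, of 111, 107 and 116 kb, were more than this, whereas those at 5 µg (54.2 kb) and 20 µg (40.01 kb) were close to it. Only at 20 µg did the normalized library have the higher titer of the pair, so the mean joins both directions of titer.

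**Figure D4:**
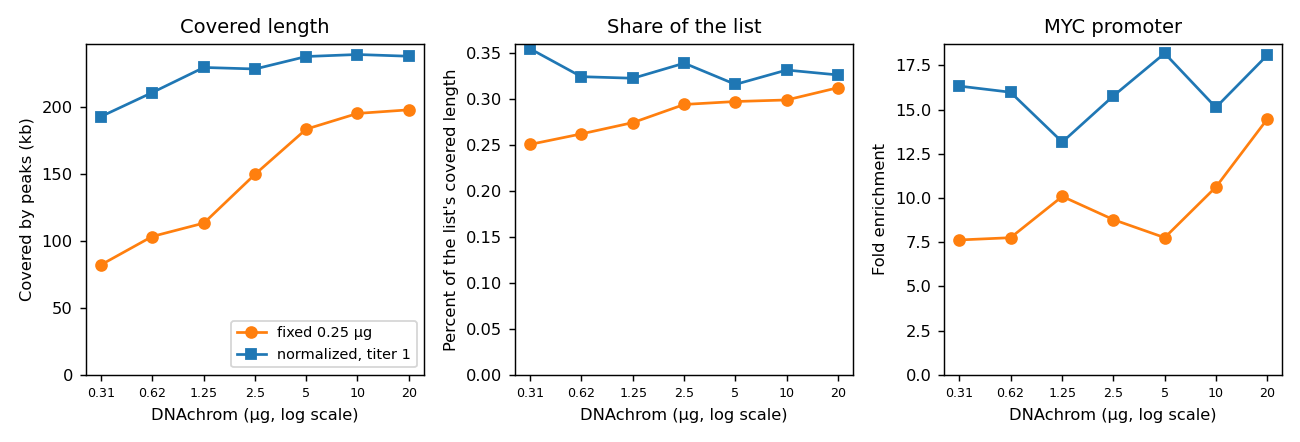
Covered length of the MYC window in kb (left), its share of the covered length of the list in percent (middle) and fold enrichment of the MYC promoter (right), against DNAchrom in µg on a log scale, 1 point per library, for the fixed-antibody arm (circles) and the normalized arm (squares). The normalized library is above the fixed-antibody library at each amount in all 3 panels, also at 10 µg, where both have titer 1.

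The window took 0.250% of the covered length of the list in 0.31-T32 and 0.312% in 20-T0.5, with all others of the fixed-antibody arm in order of titer between them. The share in the normalized libraries lay between 0.315% in 5-T1 and 0.354% in 0.31-T1. In the fixed-antibody arm the share fell with log2 titer (r = -0.97, exact permutation p = 0.000397, adjusted p = 0.00179, rho = -1 with exact p = 0.000397, n = 7), and r was -0.94 (exact p = 0.0167) without titers 32 and 0.5. No trend with DNAchrom was shown in the normalized arm (r = -0.47, exact p = 0.296, adjusted p = 0.333, rho = -0.21 with exact p = 0.662, n = 7), where r was 0.14 (exact p = 0.850) without 0.31-T1 and 20-T1 and 0.089 (exact p = 0.878) without 0.31-T1 alone. The matched difference was 0.0486 ± 0.0327 percentage points (SD, n = 6 pairs; exact sign-flip permutation p = 0.03125, adjusted p = 0.0469), higher in the normalized library in 6 of 6 pairs, and the pair of equal titer differed by 0.0325. The 6 pairs again include that at 20 µg, where the normalized library had the higher titer.

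The fall of covered length with titer was close to that of other places of the same length. On the log2 scale, covered length changed by -0.23 per doubling of titer in the window and by a median of -0.22 over 1165 stretches of the genome with a covered base in every fixed-antibody list, and 46.4% of these had a lower slope. Among all 1365 stretches of this length, the window ranked between 30 and 88 for covered length in the 14 lists. Among the 267 stretches with no more protein-coding genes than its 3, it ranked 1 in every list. The grid was laid so that the window is 1 of its stretches. The stretch of the same length just upstream was covered over 3.77 to 15.3 kb, so that the window held 15.6 to 26.5 times as much.

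The shares of the sections varied within a few percentage points between lists. The PVT1 section held 57.3% to 63.4% of the covered bases of the window and the distal section 32.1% to 37.1%. In the PVT1 section, peaks covered 52.0 to 111 kb in the libraries of titer over 1 and 114 to 141 kb in the other 9. In the distal section they covered 26.3 to 60.9 kb and 67.5 to 88.2 kb. Neither section overlapped between these libraries. The MYC promoter section took 2.57% to 4.204%.

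Region by region, covered length was lower in all 5 libraries of titer over 1 than in all 9 others in 8 of the 26 regions, or 30.8%, beside 12.8% of all 18472 regions. They were the MYC promoter and the regions at 173, 320, 343, 1581, 1685, 1835 and 1857 kb. Widths were not matched between the 26 regions, with a median of 5382 bp, and all 18472, with 2960.5 bp. Whether width accounts for the difference in share was not tested. Fold enrichment was lower in all 5 libraries than in all 9 others in 5 of the 26 regions (19.2%), beside 16.1% of all regions. These 5 were the MYC promoter and the regions at 173, 222, 1822 and 1848 kb. Of the 267 regions, 16 (5.99%) were called in every one of the 7 normalized lists but not in all 7 fixed-antibody lists, beside 4.7% of all merged regions, and 0 had the reverse, beside 0.753%. A peak in 13 lists was found for 8 of the 267 regions (2.996%), beside 2.09% of all merged regions. Of these 8, 5 were missing from 0.31-T32 and 3 from the library of titer 8. Which list was missing was not counted over all merged regions, so this split is not read as particular to the window.

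The titer coefficient of each region was estimated with limma on log2 fold enrichment, over all 18472 regions found in the 14 lists, with the arm and log2 DNAchrom in the model. Titer varied only in the fixed-antibody arm, where it moved with DNAchrom. The model thus separates them only if the slope with DNAchrom is the same in both arms, which these libraries cannot test. Of the 26 regions, 6 were lower at higher titer (Benjamini-Hochberg adjusted p under 0.05), or 23.1%, beside 23.4% of all regions, and 0 were higher, beside 0.0758%. At an unadjusted p under 0.05 there were 8, and the share of all regions at that threshold was not counted. The 6 were the region at 1581 kb (-0.30 per doubling of titer, SE 0.061, adjusted p = 0.00233), the PVT1 regions at 320 kb (-0.28, SE 0.061, adjusted p = 0.00334) and 173 kb (-0.20, SE 0.060, adjusted p = 0.0188), the CCDC26 regions at 1685 kb (-0.23, SE 0.063, adjusted p = 0.0110) and 1822 kb (-0.21, SE 0.060, adjusted p = 0.0131), and the region at 1955 kb (-0.21, SE 0.056, adjusted p = 0.0107). From titer 1 to 32, the fitted fold enrichment was 2.79-fold lower at 1581 kb and 2.01-fold lower at 173 kb. The strongest peak was not always in the same place. Its summits spread over 27 kb at 173 kb, 19.97 kb at 320 kb and 10.93 kb at 1955 kb, so these coefficients can compare different peaks. At 1581, 1685 and 1822 kb the spread was 0.677, 0.926 and 2.62 kb. The call at 173 kb was lost without 20-T0.5 (adjusted p = 0.113) or without 0.31-T1 (adjusted p = 0.0894), and that at 1822 kb without 0.31-T1 (adjusted p = 0.0504). With 10-T1a and 10-T1b exchanged between the arms, the limma calls at 1685 kb (adjusted p = 0.0527) and 1955 kb (adjusted p = 0.127) were lost.

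All 6 were among the 10 regions of highest median percentile. The MYC promoter did not pass (-0.091, 95% interval -0.21 to 0.030, adjusted p = 0.248), and neither did the PVT1 promoter (-0.062, 95% interval -0.21 to 0.082, adjusted p = 0.521). The 3 highest coefficients, 0.10 at 355 kb, 0.085 at 118 kb and 0.031 at 822 kb, belonged to weak regions and did not pass either. Across the 26 regions the coefficient and the mean log2 fold enrichment had r = -0.81, and across all 18472 r = -0.52. This is a description across regions that share their libraries, in which the level enters both measures and a region had to be called in every list.

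The median coefficient was -0.037 over the 26 regions and -0.11 over all 18472. Relative to the median of each list, the same limma model called 0 of the 26 regions lower, beside 0.0487% of all regions, and 0 higher, beside 0.0595%, with 4 at an unadjusted p under 0.05. With the mean instead of the strongest peak of a region, 0 of the 26 were called, and the share of all regions was not counted. The coefficient of DNAchrom passed in 0 of 26 regions, beside 0.0162% higher and 0% lower among all, with 2 at an unadjusted p under 0.05. For these unadjusted counts too, the share of all regions was not counted.

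**Figure D5:**
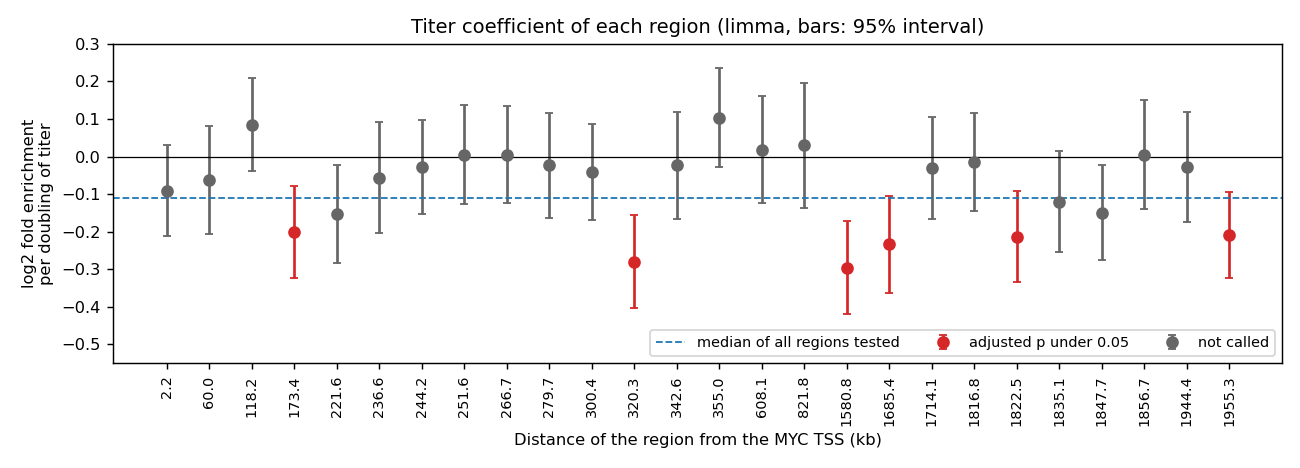
Titer coefficient (log2 fold enrichment per doubling of titer, points, with 95% intervals) of the 26 regions found in all 14 lists, ordered by distance from the MYC TSS in kb. Red points mark the 6 regions with an adjusted p under 0.05, and the dashed line is the median of all 18472 regions, -0.11.

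The promoters of genes that work with MYC were compared by presence of a peak within 5 kb of the TSS. Of 12 partners and relatives, 9 had one in all 14 lists, among them MAX, the obligate partner of MYC (median percentile 93.0), the repressor MNT (96.7) and MYCL (86.6). The exceptions were MYCN and MGA with a peak in 0 lists and MLXIPL with a peak in 1. Only the outer gene end was taken as TSS, so a peak at another start site of these genes would not be counted. The cofactors and stability regulators reported here each had one in all 14, including the acetyltransferase gene EP300 (94.2), the ubiquitin ligase gene FBXW7 (93.4) and the kinase gene AURKA (96.7). Of 16 target genes, 15 had one in all 14, among them ODC1 (98.9), NCL (95.4) and LDHA (97.4), and TERT had one in 6. These shares stand beside the 52.3% of protein-coding genes, and the MYC promoter itself had a median percentile of 94.7.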

How the data were processed

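H3K27ac ChIP-seq was made from 14 ChIP and 2 input libraries, and the inputs have no list of their own here. The authors aligned paired-end reads with BWA (0.5.9 in the submitters' processing notes, which also name CASAVA 1.4) and used Partek Flow to call MACS2 peaks, library by library, against the input of the arm. The deposited lists give each peak's fold enrichment over local background (a ratio), its −log10 p-value and −log10 q-value, a score of 10 times the latter, and its summit. They reach down to a −log10 q of 1.30, whereas the study names an FDR of 1%, so a −log10 q of at least 2 was required. The study names hg19, but the labels name hg38 and peaks end past the GRCh37 length on 7 chromosomes, so positions were read as GRCh38. The lists hold no reads. The study lists mapped read pairs per library, which were not used here, so no counting error is given.

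Peaks of the 14 lists that touch or overlap were merged into regions. The fold enrichment of a region or promoter is that of its strongest peak, and a percentile is the share of a list's peaks at or below it. Distances run from the MYC TSS to the middle of a region. Genes came from RefSeq (GRCh38.p14) with the outer gene end as TSS, and strand was taken by symbol from GENCODE for 19078 of 19974 protein-coding genes. Arms follow the labels, except that 10-T1a and 10-T1b were assigned by the input named with their list.

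Trends were tested by exact permutation over all 5040 pairings and matched differences by exact sign flips over 64 patterns, two-sided, with Benjamini-Hochberg adjustment over 9 tests. limma 3.58.1 (lmFit, eBayes with trend) in R 4.3.3 was used on log2 fold enrichment with log2 titer, log2 DNAchrom and arm. Alternatives were stricter q-values, a merge gap, other scales, the 10 µg libraries exchanged between arms and each library left out. In a test on simulated data with 18472 regions, it called 88.0% and 92.0% of planted titer coefficients of -0.4 and 0.4, 100% of those of 0.6 in either direction, and 0.0493% of regions without one. The coefficients of the window, -0.30 to 0.10, are smaller than those planted, so the share called at their size is not known. Errors were simulated separately for each region, without shifts shared by a library. Regions named were the 10 of highest median percentile, the 3 lowest and 3 highest titer coefficients, the widest region and the longest empty stretches, and all genes of the window. Others given as examples were chosen after their values were seen, as was the comparison with stretches of few genes. The members, gene lists and tests were chosen with earlier results of these data known. Sequences were not used here. Some genes of the marker and cofactor lists are not reported here. Python 3.11.15, numpy and matplotlib were used.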

Additional observations from a re-analysis of the deposited data

How the results depend on the processing

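Leaving out 1 pair of libraries gave matched differences of 78.2 to 93.4 kb in covered length, 0.0375 to 0.0555 percentage points in share and 0.74 to 0.92 in log2 fold enrichment of the MYC promoter, each with an exact permutation p of 0.0625, the smallest that 5 pairs can give. Leaving out 1 library, r of the MYC promoter with titer ranged from -0.90 (without 5-T2) to -0.56 (without 20-T0.5), and r of the share with DNAchrom in the normalized arm from -0.62 to 0.089. With the 10 µg libraries exchanged between the arms, r with DNAchrom in the normalized arm was 0.45 for covered length and -0.077 for the MYC promoter. On a linear scale, r was 0.61 for covered length with DNAchrom and -0.57 for the MYC promoter with titer. By percentile in the own list, r of the MYC promoter was 0.32 with titer and -0.00052 with DNAchrom, and its matched difference was 6.79 points. At a -log10 q of at least 5, 11 regions had a peak in all 14 lists. The limma count of 26 regions lower at higher titer was 0 relative to the median of each list, 0 with the mean of the peaks and 12 in the fixed-antibody arm alone, where the MYC promoter was called (-0.12, adjusted p = 0.0251). The share of all regions called was not counted with the mean or in that arm alone. In that arm alone, the median coefficient was -0.11 over the 26 regions and -0.15 over all regions tested, so the 12 are not read as particular to the window. Relative to the median of each list, the coefficient was 0.023 at the MYC promoter and 0.052 at the PVT1 promoter, and with the mean it was 0.050 at 222 kb. At 822 kb it was -0.0070 in the fixed-antibody arm alone, and with 1 library left out it ranged from -0.044 (without 20-T1) to 0.127 (without 0.31-T1), with -0.030 without 20-T0.5. The causes were not tested. How depth limits the peak calls was not analysed here.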
